A study of Mus musculus with 12 samples.

Results

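Small RNA-seq of Dnmt1 knockout (Dnmt1 KO) mouse embryonic stem cells (ESCs) was compared with that of wild-type (WT) ESCs over every annotated feature, to ask which small RNAs differ when DNA methylation is no longer maintained. The libraries were chosen by the genotype in their labels, which gave 8 of the 12 libraries of the series. The Dnmt1 KO group held 2 libraries, A and B, labelled Dnmt1 -/-. The WT group held 6 libraries labelled Wildtype, named here 1A, 1B, 2A, 2B, 3A and 3B, and 2A and 2B are those titled E14 2. Libraries whose titles differ only in the letter A or B are called 1 culture here, which the labels do not state. The other 4 libraries, labelled Dicer/Dnmt1 -/- (Dicer/Dnmt1 KO), served for the shared estimate of the spread and for a few values set side by side. All of these cells carry the strain label E14 and the cell type label ESC, and no treatment, passage or day is given for a library. The study's methods describe deletion by an inducible Cre recombinase in a line of another strain, grown in serum with LIF, with or without feeder cells. Whether the WT libraries were uninduced cells of that line, and how long after deletion the knockout cells were taken, is not stated in the labels. Genotype, culture and possibly cell line therefore cannot be told apart here. The series also states that some libraries are technical replicates without naming them, so p-values measure only the spread between these libraries, which may be technical.

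DNMT1 copies CpG methylation onto the newly made DNA strand at replication, and cells that divide without it lose methylation. In the imprinted Dlk1-Dio3 locus, a control region methylated on the paternal chromosome keeps a long array of miRNAs, snoRNAs and noncoding RNAs silent there, and the unmethylated maternal chromosome transcribes them. A miRNA is cut from a hairpin precursor by Drosha and Dicer and finds its target mRNAs mainly through its seed, bases 2 to 8 from the 5′ end.

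Mature sequences of the miRNAs on which the results turn are given 5′ to 3′ from RefSeq (GRCm38.p6), with the seed in capitals. Counts were made per hairpin, so the arm from which the reads came is not known and both arms are shown. The first set holds the 4 miRNAs of the Dlk1-Dio3 locus with the most reads in Dnmt1 KO.
mmu-miR-127-5p: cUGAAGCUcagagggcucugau
mmu-miR-127-3p: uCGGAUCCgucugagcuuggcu
mmu-miR-411-5p: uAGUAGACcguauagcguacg
mmu-miR-411-3p: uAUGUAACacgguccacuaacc
mmu-miR-541-5p: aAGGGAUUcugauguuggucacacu
mmu-miR-541-3p: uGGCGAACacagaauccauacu
mmu-miR-410-5p: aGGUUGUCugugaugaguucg
mmu-miR-410-3p: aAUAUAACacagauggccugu

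The next pair are neighbours in the same locus whose 3p arms differ at 3 of 22 positions, and 1 of these lies in the seed. Counted from the 5′ end, with the miR-381-3p base first, the differences are A4G, G21U and U22C.
mmu-miR-381-3p: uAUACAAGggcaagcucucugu
mmu-miR-300-3p: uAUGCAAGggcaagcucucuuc

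Mir881, Mir871 and Mir470 are the called miRNAs of a cluster on chromosome X, shown because this was the other locus whose reads were nearly all in Dnmt1 KO.
mmu-miR-881-5p: cAGAGAGAuaacagucacaucu
mmu-miR-881-3p: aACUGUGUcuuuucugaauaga
mmu-miR-871-5p: uAUUCAGAuuagugccagucaug
mmu-miR-871-3p: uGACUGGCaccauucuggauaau
mmu-miR-470-5p: uUCUUGGAcuggcacuggugagu
mmu-miR-470-3p: aACCAGUAccuuucugagaaga

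The 3 tested let-7 miRNAs share 1 seed, as do the 6 tested miRNAs of the miR-17 seed family, of which miR-20b was the miRNA called lower.
mmu-let-7i-5p: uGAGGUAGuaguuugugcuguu
mmu-let-7e-5p: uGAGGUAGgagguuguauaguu
mmu-let-7d-5p: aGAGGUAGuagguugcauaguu
mmu-miR-20b-5p: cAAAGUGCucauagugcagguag
mmu-miR-106a-5p: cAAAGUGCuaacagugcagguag
mmu-miR-17-5p: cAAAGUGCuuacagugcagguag
mmu-miR-20a-5p: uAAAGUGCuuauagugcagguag
mmu-miR-93-5p: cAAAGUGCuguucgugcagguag
mmu-miR-106b-5p: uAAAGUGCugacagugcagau

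Depth was low. The WT libraries held 16142 (2A) to 245184 (1A) reads of 20 to 24 nt, and the Dnmt1 KO libraries held 67678 (A) and 107607 (B). Levels are in RPM, reads-per-million of the library, and 1 read was worth 4.08 to 62.0 RPM in WT and 14.8 and 9.29 RPM in Dnmt1 KO. The Dicer/Dnmt1 KO libraries held 8710 to 150701 reads, and 1 read was worth 6.64 to 115 RPM there. A count of 0 allows up to 3 reads, which is 186 RPM in WT 2A. This limit covers counting error only. Dnmt1 itself had 0 to 18 reads in a WT library and 8 and 9 in Dnmt1 KO, and these short fragments of its mRNA do not check the label. The WT culture titled E14 2 stood apart from the other WT cultures, with miRNAs at 65.7% (2A) and 45.3% (2B) of counts against 29.5% to 33.9%, so results that move with it are also given without it. Markers of ESCs, mostly through reads of the Mir290 cluster, were present in all 8 libraries.

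The Dnmt1 KO libraries had far more small RNA from the Dlk1-Dio3 locus and from a cluster of miRNAs on chromosome X, and more of a scattered set of other miRNAs. The fit took the libraries as independent, although the A and B of a pair may share a culture. Of 15 miRNAs called outside Dlk1-Dio3, 8 were called when the pairs were allowed to correlate, against 14 for the miRNAs of the locus. With A and B summed per culture fewer were called in both sets, most of all outside the locus. Dnmt1 KO is then 1 sample with no spread of its own. The filter still asked for 2 samples there, so a miRNA high in Dnmt1 KO alone could not enter. Of 683 tested features, 47 passed an adjusted p of 0.05 (limma, Benjamini-Hochberg), which is 6.88% of those tested. They were 45 higher (6.59%) and 2 lower (0.293%) in Dnmt1 KO. Among 132 tested miRNAs 28 were higher and 1 was lower. The median log2 fold change was 1.40 for the miRNAs, 1.13 for the 118 of them outside Dlk1-Dio3 and 0.13 for all tested features. All fold changes here are on the log2(RPM + 10) scale. That scale understates the change of features with few reads. Among other classes, 5 of 167 snoRNAs, 3 of 23 lincRNAs and 7 of 301 protein-coding genes were higher, many of them through reads of a miRNA inside them, since counting ignored strand and a read was counted for every feature it overlapped. The 47 features merge into 26 loci, of which 16 lie outside Dlk1-Dio3.

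Every called feature had groups that did not overlap, 45 with both Dnmt1 KO libraries above all 6 WT libraries and 2 below. Over all tested features, 17.1% lay wholly above and 5.86% wholly below. In 22 of the 47 no WT library had more than 3 reads, and 7 had 0 reads in all 6. Leaving out the E14 2 culture raised the number of calls to 181 of 660, or 27.4%, with 96 higher and 85 lower, and all 47 were among them. The miRNA calls were then 53 higher and 4 lower, while the 167 tested snoRNAs gave 9 higher and 31 lower.

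**Figure D1:**
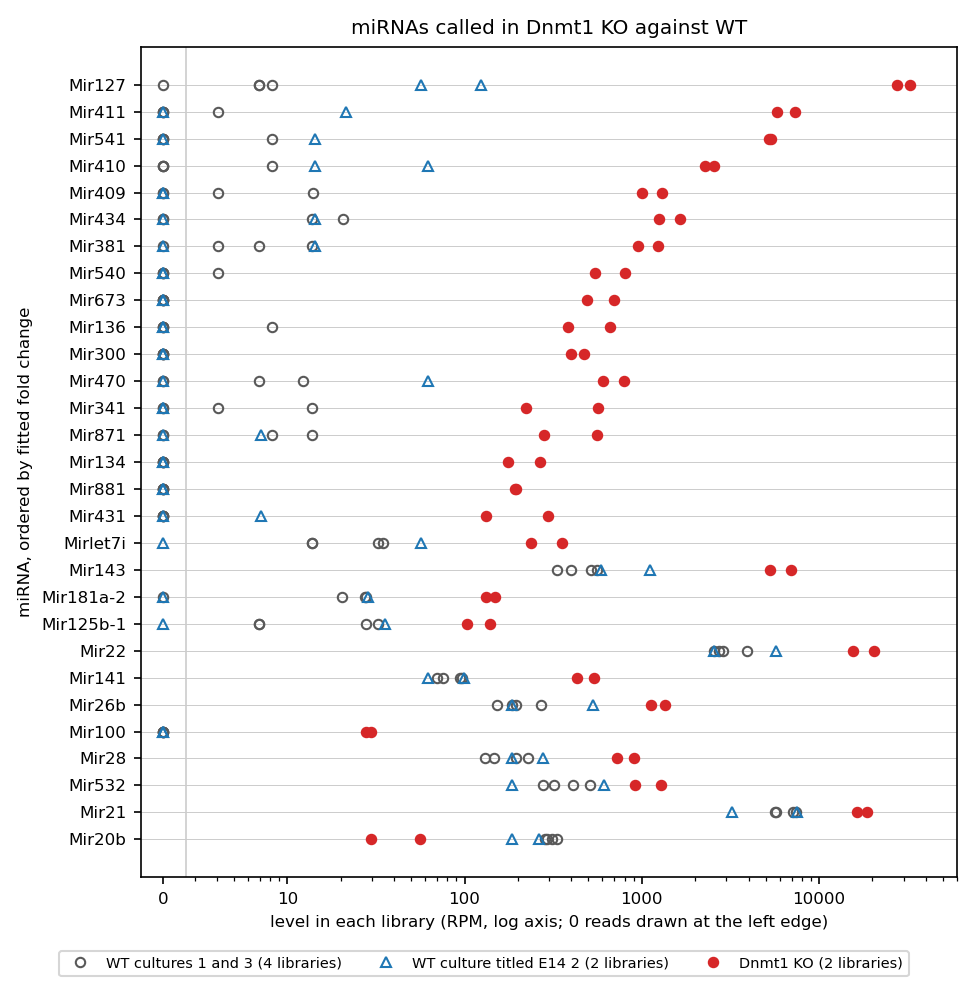
Level of each of the 29 called miRNAs in the 6 WT and 2 Dnmt1 KO libraries, in RPM on a log axis with libraries at 0 reads drawn at the left edge. The red points of Dnmt1 KO lie right of all WT points for 28 miRNAs and left of them for Mir20b, and the E14 2 libraries are drawn as triangles.

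The Dlk1-Dio3 miRNAs had few reads in each WT library and many in both Dnmt1 KO libraries. The locus (chromosome 12, 110701547 to 111517277, NCBIM37, as are all positions below) holds 57 annotated miRNAs, of which 14 were tested and called higher. For 13 of the 14 no WT library reached the level that the filter asks for, so they entered the test through the knockout groups, where they are high, and their count and median are only a description. The median of their log2 fold changes was 6.45, or 6.85 once the 3 miRNAs without a WT read take their lower bounds, and 3.10 with no filter. Summed over the 57, they came to 27.8 RPM in the lowest WT library, a median of 61.6 RPM and 186 RPM in the highest, 3 to 22 reads in each. Dnmt1 KO A and B had 53470 and 51570 RPM, from 3619 and 5549 reads. The locus thus took 0.00234% to 0.0176% of counts in WT libraries and 4.37% and 4.22% in Dnmt1 KO. Both knockout libraries were close to each other, and no WT library came near them. In Dicer/Dnmt1 KO the sum was 2181 to 11480 RPM, from 19 to 728 reads a library.

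Mir127, a miRNA expressed in placenta and fetal tissue and transcribed antisense to Rtl1, was the largest of these. It lies at 110831042 to 110831138 on the plus strand, within the Rtl1 gene. It had 2, 1, 2, 8, 0 and 1 reads in WT 1A, 1B, 2A, 2B, 3A and 3B, and 2215 and 2969 in Dnmt1 KO A and B. In RPM these were 0 to 124 (median 7.55) in WT, and 32730 and 27590 in Dnmt1 KO. The log2 fold change was 10.23 (SE 1.15, limma adjusted p 5.86e-05), and without E14 2 it was 11.31. Mir127 made up 0.00595% of miRNA reads in WT on average and 4.71% in Dnmt1 KO, where it had rank 5 among the miRNAs.

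Mir411 (110948385 to 110948480) had 1 read in WT 1A and 3 in WT 2B and none in the other 4 WT libraries, and 390 and 789 reads in Dnmt1 KO. Its log2 fold change was 9.35 (SE 0.78, limma adjusted p 1.37e-05). Mir541 (110980619 to 110980708), inside the noncoding gene Mirg, had 2 reads each in WT 1A and 2B, none in the others, and 351 and 574 in Dnmt1 KO. It was higher by 9.04 (SE 1.13, limma adjusted p 0.000112). These miRNAs were therefore at or below the counting limit in WT, where a difference between WT libraries cannot be read. Mir410 (110981925 to 110982005), which like Mir541 lies inside Mirg, had 0 to 2 reads in WT libraries and 153 and 276 in Dnmt1 KO, a log2 fold change of 7.26. The single read of WT 2A is worth 62.0 RPM and sets the upper end of the WT range there.

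Mir673, Mir300 and Mir134 had no read in any of the 6 WT libraries. In Dnmt1 KO they had 47 and 53, 27 and 51, and 18 and 19 reads. Against a floor of 3 reads over the WT group they were at least 145-fold, 113-fold and 53.7-fold higher. The close relatives Mir300 and Mir381, whose 3p arms are shown above, were both higher, Mir381 by 6.51 on the log2 scale (SE 0.78, limma adjusted p 8.77e-05). The other 6 tested miRNAs of the locus, Mir409 (listed as AC121784.1), Mir434, Mir540, Mir136, Mir341 and Mir431, had log2 fold changes of 6.98, 6.87, 6.39, 5.94, 5.30 and 4.63. Mir434, Mir136 and Mir431 lie antisense within Rtl1, as Mir127 does.

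Of the 43 untested miRNAs 13 had no read in the 8 libraries. Each of the other 30 had a higher pooled RPM in Dnmt1 KO, at low counts and with no test. For 26 of these the reads were in Dnmt1 KO alone, and the 30 together had 8 reads in WT and 233 in Dnmt1 KO. No single one had more than 24 reads in Dnmt1 KO.

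**Figure D2:**
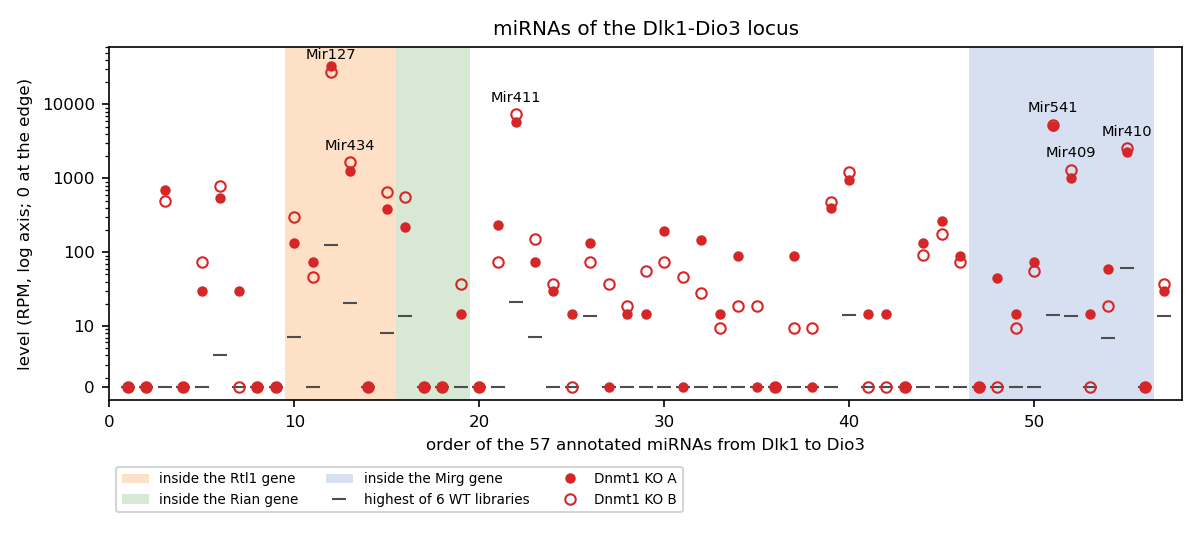
Level of the 57 annotated Dlk1-Dio3 miRNAs in their order along the locus, in RPM on a log axis with 0 at the lower edge, for Dnmt1 KO A (filled), Dnmt1 KO B (open) and the highest of the 6 WT libraries (dash). Shading marks miRNAs inside Rtl1, Rian or Mirg. Mir127 at 32730 and 27590 RPM is the highest, and miRNAs with reads in Dnmt1 KO occur along most of the locus.

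By segment, reads in Dnmt1 KO came mainly from the stretch antisense to Rtl1. The 6 miRNAs within Rtl1, which encodes a retrotransposon-derived protein needed in placenta, held 61.0% of the locus miRNA reads in Dnmt1 KO (5594 reads, against 23 in WT). The 10 within Mirg held 17.3% (1585 against 14), the 4 within Rian, the host of many C/D snoRNAs, 0.884% (81 against 3), and the 35 outside these genes 20.8% (1908 against 16). The 2 within Meg3, the long noncoding RNA at the start of the array, had 0 reads. Rtl1 and Mirg themselves were called, with log2 fold changes of 9.79 and 8.61, but their counts of 5594 and 1585 reads equal the sums of the miRNAs inside them. Rian (110842155 to 110899919) had 2 reads each in WT 1A and 1B and 0 in the others, and 54 and 125 in Dnmt1 KO (log2 fold change 6.66, SE 0.61, limma adjusted p 1.74e-05). Of its 179 reads in Dnmt1 KO, 81 are those of the miRNAs inside it. The snoRNAs inside it, such as AF357355 with 38 reads, add most of the rest, so a rise of Rian itself is not shown. Dlk1, a membrane protein of the Notch ligand family made from the paternal chromosome, had 1 read in WT and 0 in Dnmt1 KO, Meg3 had 0 and 1, and Dio3, a deiodinase of thyroid hormone, had none.

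C/D snoRNAs of the locus were higher too, at lower levels. These guide RNAs are processed from introns of Rian and its continuation, and do not need Dicer. Of 23 annotated, 5 were tested and 4 were called higher, with a median log2 fold change of 4.09, and all 5 entered the test through the knockout groups. Their sum was 0 RPM in 4 WT libraries, 4.08 RPM in 1A and 7.13 RPM in 2B, and 739 and 818 RPM in Dnmt1 KO. AF357355 (110892837 to 110892908) had 1 read in WT 1A and 13 and 25 in Dnmt1 KO (log2 fold change 4.78, SE 0.62, limma adjusted p 0.000148). AF357428 had 1 read in WT 2B and 7 and 19 in Dnmt1 KO (4.09). A pair of SNORD113 copies, at 110887827 to 110887898 and 110894555 to 110894626, had 0 WT reads and 32 and 9 reads over both Dnmt1 KO libraries, at least 46.4-fold and 13.1-fold higher. Reads of such near-identical copies cannot be placed with certainty. AF357341 had 0 reads in WT and 10 in Dnmt1 KO but did not pass (2.88, limma adjusted p 0.111). Of 18 untested snoRNAs 8 had reads, 23 in all and every one in Dnmt1 KO. Over the 162 snoRNAs outside the locus only SNORD127 on chromosome 12 (66157560 to 66157645) was called, with a log2 fold change of 2.78 (limma adjusted p 0.0400), and the median was -0.05.

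**Figure D3:**
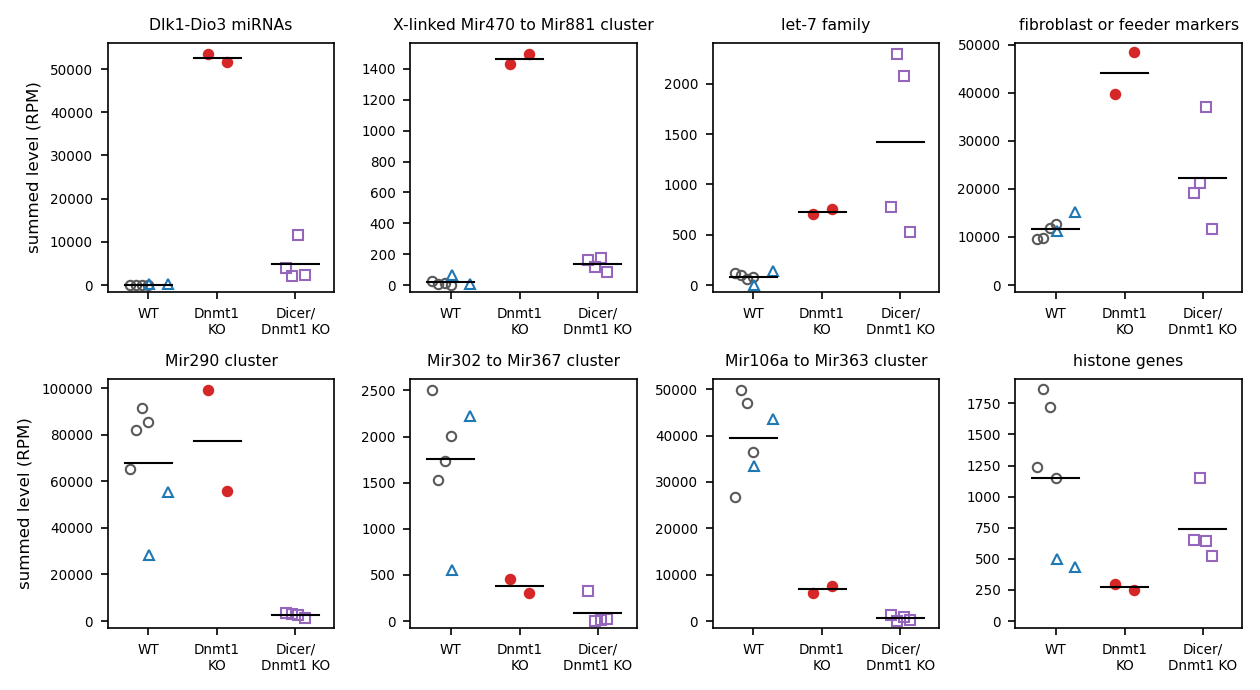
Summed level of 8 gene lists in RPM on linear axes from 0, 1 point a library, with WT cultures 1 and 3 as circles, E14 2 as triangles, Dnmt1 KO in red and Dicer/Dnmt1 KO as squares. Horizontal lines are group means. For the Dlk1-Dio3 miRNAs, the X-linked cluster, the let-7 family and the fibroblast or feeder markers both Dnmt1 KO libraries lie above all 6 WT libraries, for the Mir302 to Mir367 and Mir106a to Mir363 clusters and the histone genes below them, and for the Mir290 cluster the groups overlap.

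The second locus was on chromosome X, a cluster of miRNAs known for expression in testis. Of 22 names 20 are in the annotation, and 3 were tested and called higher, with a median log2 fold change of 5.24, or 5.56 with the bound for Mir881. None of the 3 reached the filter level in a WT library, so they too entered through the knockout groups and the count is a description. Summed, the cluster had 0 to 62.0 RPM in WT (median 10.5) and 1433 and 1496 RPM in Dnmt1 KO. The highest WT value is 1 read in library 2A. Mir470 (64067126 to 64067200) had 3, 1, 1, 0, 0 and 0 reads in WT 1A, 1B, 2A, 2B, 3A and 3B, and 54 and 65 in Dnmt1 KO (log2 fold change 5.56, SE 1.08, limma adjusted p 0.00553). Mir871 (64063603 to 64063679) had 4 reads over the WT libraries, at most 2 in any, and 19 and 60 in Dnmt1 KO (5.24, SE 0.75, limma adjusted p 0.000320). Mir881 (64055119 to 64055196) had none in WT and 13 and 21 in Dnmt1 KO, at least 49.3-fold higher. Of the 17 untested members 6 had reads, 1 in WT and 26 in Dnmt1 KO, led by Mir878 with 1 and 12. In Dicer/Dnmt1 KO the cluster summed to 86.3 to 173 RPM, from 1 to 13 reads a library.

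Of the 47 called features 18 were called under every one of 23 alternative settings that tested them, and these were 16 from Dlk1-Dio3 and Mir881 and Mir871. Mir881 and Mir871 were tested in 19 of the 23. For 13 of the 14 tested Dlk1-Dio3 miRNAs and all 3 of the X-linked cluster no WT library reached the filter level. They entered through the knockout groups, so this stability is only a description. Calls of both loci were lost in at most 3 alternatives, and the 23 other calls in 2 to 15. Dropping Dnmt1 KO A left 19 calls and dropping B left 16, all among the 47. In those fits the single knockout library is assumed to vary like the other groups.

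**Figure D4:**
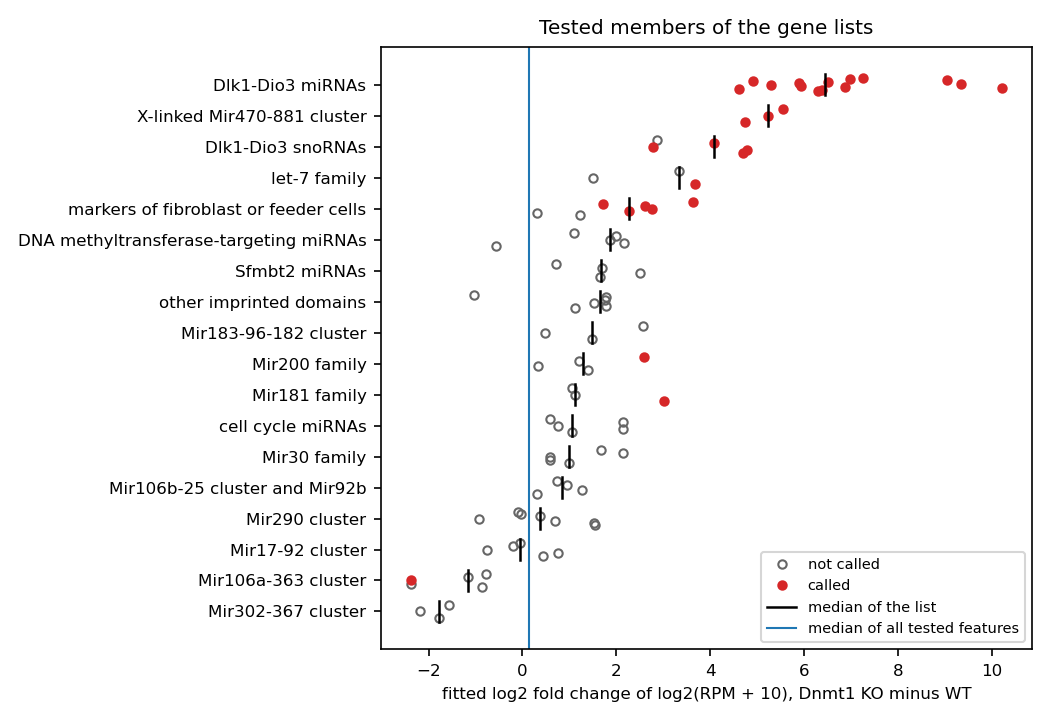
Fitted log2 fold change, Dnmt1 KO minus WT on the log2(RPM + 10) scale, of each tested member of 18 gene lists, filled in red where called, with the list's median as a black bar and the median of all 683 tested features (0.13) as a blue line. The Dlk1-Dio3 miRNAs (median 6.45) and the X-linked cluster (5.24) stand farthest right, and the Mir302 to Mir367 cluster (-1.78) farthest left.

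Among the remaining calls, a group of miRNAs abundant in fibroblasts was higher. The study's methods give culture with or without feeder cells, and the labels do not say which. From a list of 23 fibroblast or feeder markers 7 were tested and 5 were higher, with a median of 2.28 (2.62 with the bound for Mir100). Of the 7, Mir125b-1 and Mir100 reached the filter level in no WT library. These 2 entered the test through the knockout groups, so the count and median are only a description. The 5 calls fell to 2 when the A and B pairs were allowed to correlate, to 3 with the letter as a replicate block and to 0 with A and B summed. The list summed to 9585 to 15210 RPM in WT (median 11530) and 39760 and 48500 RPM in Dnmt1 KO. Mir22 (chromosome 11, 75277218 to 75277312) had 2540 to 5720 RPM in WT (median 2789), and 15560 and 20350 RPM in Dnmt1 KO (log2 fold change 2.62, SE 0.55, limma adjusted p 0.00762). Its reads are also those of Tlcd2 and 2210403K04Rik, which were called with it. Mir21 (chromosome 11, 86397569 to 86397660, in Vmp1), a miRNA of growth and stress responses, had 3221 to 7532 RPM in WT (median 6427), and 16330 and 18610 RPM in Dnmt1 KO (1.73, SE 0.41, limma adjusted p 0.0216). Both are expressed in many cell types. Mir143, typical of smooth muscle and other mesenchymal cells, had 333 to 1115 RPM in WT (median 538), and 5319 and 6961 RPM in Dnmt1 KO (3.63, SE 0.70, limma adjusted p 0.00506).

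Mir125b-1 and Mir100 lie inside the noncoding gene D230004N17Rik on chromosome 9, and all of these were called, the miRNAs at low counts. Mir125b-1 (listed as CT025619.1) had 8, 1, 0, 5, 2 and 1 reads in WT 1A to 3B, and 7 and 15 in Dnmt1 KO (log2 fold change 2.76, limma adjusted p 0.0483). Mir100 (listed as CT009696.2) had 0 WT reads and 2 and 3 in Dnmt1 KO, at least 7.25-fold higher. Mir10b and Mir31 of the list did not pass (1.23 and 0.31). The collagen and mesenchymal genes of the list were at or near 0. Reads of an mRNA here are only its short fragments, so a count of 0 does not measure the level of that mRNA. Of the 23 names 10, among them Col1a1, Col1a2, Col3a1, Dcn, Lum, Postn, Mir199a-1, Mir199a-2 and Mir199b, had no read in the 8 libraries. In Dicer/Dnmt1 KO the list summed to 11580 to 36960 RPM, and Mir143 had 4393 to 14880 RPM there. The part of feeder cells in these calls was not tested. The 10 endoderm markers summed to 208 to 1549 RPM in WT (median 327), and 2039 and 2333 RPM in Dnmt1 KO. Most of this was Mir192, a miRNA abundant in gut and liver, which was not called (2.51, limma adjusted p 0.238) but was called without E14 2 (3.56, limma adjusted p 0.00162). The part of endoderm cells in the other calls was not tested. The 9 tested ESC markers were all miRNAs of the Mir290 and Mir302 to Mir367 clusters, and none of the list's protein-coding genes was tested. The 9 gave 0 calls with limma (2 at an unadjusted p under 0.05, and 2 calls with voom weights), median -0.02, and without E14 2 gave 1 higher and 1 lower. Muscle markers had 0 reads in Dnmt1 KO, neural markers summed to 62.0 to 139 RPM in WT and 73.9 and 46.5 RPM in Dnmt1 KO, and two-cell-like markers had none.

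The let-7 miRNAs, which accumulate as stem cells differentiate and are held back in ESCs by LIN28 proteins, were sparse in WT. The 12 members together had 0 to 136 RPM in WT (median 90.0), and 709 and 753 RPM in Dnmt1 KO. Mirlet7i (chromosome 10, 122422696 to 122422780) had 0 to 8 reads per WT library and 16 and 38 in Dnmt1 KO, and was higher by 3.67 (SE 0.73, limma adjusted p 0.00613). Let-7e, with the same seed, missed the threshold (3.34, SE 0.98, limma adjusted p 0.0586; without E14 2, 3.27 and limma adjusted p 0.0290), and let-7d, with 5 reads in WT and 6 in Dnmt1 KO, was not called. The 3 had a median of 3.34, and none reached the filter level in a WT library. In Dicer/Dnmt1 KO the family summed to 524 to 2296 RPM, from 19 to 132 reads a library, and the highest value is 20 reads.

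The other miRNA calls lay 1 to a locus. Mir141 (chromosome 6, 124667932 to 124668003), of the Mir200 family that keeps cells epithelial, had 62.0 to 99.9 RPM in WT (median 84.8), and 429 and 539 RPM in Dnmt1 KO (log2 fold change 2.59, SE 0.53, limma adjusted p 0.00662). It was the only called member of 4 tested in that family, and Mir200a, which shares its 3p seed, had 0.33. Mir181a-2 (chromosome 2) had 0 to 28.5 RPM in WT, and 133 and 149 RPM in Dnmt1 KO (3.02, limma adjusted p 0.0192), while Mir181c and Mir181d, with the same seed and more reads, had 1.06 and 1.12. Mir141 and Mir181a-2 reached the filter level in no WT library, so both entered the test through the knockout groups. Neither seed family was called as a whole. The 28 called miRNAs with a RefSeq mature sequence have 55 arms with 55 distinct seeds, so no seed occurred in more than 1 of them, and 7 of the 28 share a seed with a tested miRNA that was not called. Mir26b (in Ctdsp1), Mir28 (in Lpp) and Mir532 (in Clcn5), which lie within protein-coding genes that were also called, had log2 fold changes of 2.53, 2.21 and 1.74 with limma adjusted p of 0.0352, 0.0330 and 0.0441.

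Mir20b was the miRNA called lower. It lies in the Mir106a to Mir363 cluster on chromosome X (50095290 to 50095369), a relative of the growth-promoting Mir17 to Mir92 cluster. It had 186 to 333 RPM in WT (median 289), 221 reads in all, and 29.6 and 55.8 RPM in Dnmt1 KO, from 2 and 6 reads. The log2 fold change was -2.39 (SE 0.48, limma adjusted p 0.00638). The 5 tested members of the cluster had a median of -1.17, all 5 were below 0 and 1 was called. The cluster summed to 26700 to 49800 RPM in WT (median 40070), and 5999 and 7639 RPM in Dnmt1 KO, mostly Mir92-2, whose value of -2.37 did not pass (limma adjusted p 0.321). Its mature sequence is also made by Mir92-1, so the origin of those reads is uncertain. In the miR-17 seed family the members on autosomes had log2 fold changes of 0.96 (Mir93), 0.73 (Mir106b), 0.44 (Mir17) and -0.21 (Mir20a), and those on chromosome X -0.77 (Mir106a) and -2.39. No difference between these members was tested.

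The other feature called lower was Hist1h3g, a replication-dependent H3 gene on chromosome 13 with near-identical copies. It had 150 to 331 RPM in WT (median 230), and 59.1 and 27.9 RPM in Dnmt1 KO from 4 and 3 reads (log2 fold change -2.12, SE 0.56, limma adjusted p 0.0352). All 5 tested histone genes were below 0, with a median of -1.80, and 1 was called. Without E14 2, 3 of 4 tested were called lower, with a median of -2.52. Fragments of 67 histone genes summed to 435 to 1869 RPM in WT (median 1195), and 296 and 251 RPM in Dnmt1 KO. The 2 lowest WT values are those of E14 2.

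The clustered miRNAs typical of ESCs were not called with all 6 WT libraries. The Mir290 cluster, which supports the rapid cell cycle of ESCs, gave 0 calls of 7 tested with limma (1 at an unadjusted p under 0.05, and 0 with voom weights) and a median log2 fold change of 0.38. It summed to 28130 to 91540 RPM in WT, and 99190 and 55620 RPM in Dnmt1 KO, so the groups overlapped. Without E14 2, 1 of its members was called lower and 1 higher, Mir291a (1.90, limma adjusted p 0.0223). The Mir302 to Mir367 cluster, more typical of the later epiblast state, gave 0 of 3 with limma (1 at an unadjusted p under 0.05, and 2 with voom weights) and a median of -1.78. It summed to 558 to 2504 RPM in WT (median 1870), and 458 and 307 RPM in Dnmt1 KO. Without E14 2, Mir302b was called lower (-2.83, limma adjusted p 0.00906).

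Mir182 and Mir92-1 had the highest levels in both groups. Mir182 had 35320 to 412800 RPM in WT (median 61560), and 210700 and 213900 RPM in Dnmt1 KO. The highest WT values of Mir182, Mir183 and Mir191 (listed as CT010508.1) were those of both E14 2 libraries, and for all 3 miRNAs library 2A lay above both Dnmt1 KO libraries. None of the 3 was called, with log2 fold changes of 1.48, 2.57 and 2.81. Without E14 2 each was called, with limma adjusted p of 0.0373, 0.00317 and 0.0413. Whether E14 2 is the fitting control for these miRNAs cannot be told from the labels. Mir92-1 had 62070 to 112500 RPM in WT, and 77600 and 77430 RPM in Dnmt1 KO (-0.05).

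Several lists of miRNAs had medians of 1.65 to 1.86, and no call. The median was 1.40 for all tested miRNAs and 1.13 for those outside Dlk1-Dio3. The miRNAs and genes of other imprinted domains gave 0 calls of 6 with limma (3 at an unadjusted p under 0.05, and 1 with voom weights) and a median of 1.65, and without E14 2 gave 3 higher and 1 lower. Mir298, at the imprinted Gnas locus, had 248 to 862 RPM in WT, and 1507 and 1701 RPM in Dnmt1 KO (1.79, SE 0.51, limma adjusted p 0.0516; without E14 2, limma adjusted p 0.0333). Mir335, in the imprinted gene Mest, had 319 to 920 RPM in WT, and 1448 and 1729 RPM in Dnmt1 KO (1.78, SE 0.71, limma adjusted p 0.196; without E14 2, 2.24 and limma adjusted p 0.0147). For neither did the groups overlap, and Dnmt1 KO lay wholly above WT for 62 of the 132 tested miRNAs. The 4 tested Sfmbt2 miRNAs, processed from an intron of an imprinted gene, had a median of 1.67 and 0 calls with limma (3 at an unadjusted p under 0.05, and 2 with voom weights), led by Mir467e (limma adjusted p 0.0521), and 3 were called without E14 2. The miRNAs known to target DNA methyltransferase mRNAs had a median of 1.86 and 0 calls of 5 with limma (3 at an unadjusted p under 0.05, and 2 with voom weights), among them Mir148a (1.86, limma adjusted p 0.117), and 3 were called without E14 2.

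Protein-coding genes known to be silenced by DNA methylation left almost no short fragments. Of 26 germline genes in the table, 7 had a read and none was tested, with 12 reads in WT and 3 in Dnmt1 KO, so a difference was not detectable at this depth. Of the methylation and RNA interference genes Dnmt1 (1.12, SE 0.87, limma adjusted p 0.558) and Tet1 (-2.17, limma adjusted p 0.30) were tested. Both groups had values of 0 or few reads for the rest, and Dicer1 had 0 to 3 in WT and 0 and 1 in Dnmt1 KO.

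By class, the miRNA share of all counts was 39.2% ± 14.2 for the WT libraries (SD, n = 6) and 52.3% ± 1.43 for Dnmt1 KO (SD, n = 2). The groups overlapped through E14 2, and the difference of 13.1 percentage points had p = 0.286 (two-sided exact permutation test, adjusted 0.696 over 13 shares, where 2 against 6 cannot go below 0.0714). Without E14 2 the WT share was 31.1% ± 1.95 and the difference 21.2 points, with an exact permutation p = 0.133, which is the lowest that 2 against 4 can give. Outside Dlk1-Dio3 the miRNA share was 39.2% in WT and 48.0% in Dnmt1 KO. snoRNAs took 14.6% ± 6.06 in WT and 7.99% ± 0.446 in Dnmt1 KO, again overlapping. The shares of snRNAs, rRNAs, mitochondrial RNAs, lincRNAs and protein-coding fragments overlapped as well.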

How the data were processed

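The submitters' processing notes and the study's methods give trimming with Trim Galore 0.3.5, selection of 20 to 24 nt reads, mapping with Bowtie2 2.2.6 to NCBIM37 and quantitation of overlaps in SeqMonk. The deposited values are log2 RPM, scaled by the authors to each library. Taking each column's minimum as 0.9 read, which stands for 0, returned whole reads for 100% of values (relative tolerance 0.0001). A further 89 value columns belong to no sample and were not used. Features (32101) were placed by the GENCODE annotation of NCBIM37, and 116 of 132 tested miRNAs matched RefSeq, 8 of them from clone names. How multiply mapping reads were placed is not given in the sources used here.

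Library sizes were adjusted by TMM (the trimmed mean of log ratios, 30% and 5% trimmed), and log2(RPM + 10) was fitted with limma 3.58.1 (R 4.3.3, mean-variance trend) in 1 model of 3 groups over 12 libraries without covariates. Features needed 111.3 RPM in 2 libraries (10 reads at the median depth) and 15 reads in total, and p-values were adjusted over all 683 (Benjamini-Hochberg, 0.05). Levels printed are RPM of library reads without TMM factors. The script was tested on simulated data. Class shares were compared by exact permutation in Python 3.11.15 with scipy 1.17.1. The A and B pairs of WT and Dnmt1 KO differed beyond sampling noise (chi-square per degree of freedom 11.8 to 54.1). Those of Dicer/Dnmt1 KO were not checked in this way, and all pairs were kept separate. Correlations of deviations by letter were -0.07 and 0.07, which are 1 value with its sign flipped. They cannot settle whether the letters A and B pair libraries.

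The comparison, gene lists and alternatives were chosen with earlier results of these data known. Named are the targeted genes, every called feature, up to 4 members of each list with the most reads, the 10 highest miRNAs of each group and the 3 features with the most reads in each class. Mir31, Mirlet7d, Mir106a, Meg3, Dio3 and the markers at 0 fall outside this rule and were added after their values were seen, to complete their lists. Alternatives covered scaling, pseudocount, filter, voom weights, pairing and each library left out.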

Additional observations from a re-analysis of the deposited data

Results flagged for a closer look

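In 107 values checked over the 6 WT libraries, 26 had 1 library far from the other 5. No rate by chance is given, because many of these values are a few reads and some come from the same reads. The library was 2B in 12 and 2A in 8, both of the E14 2 culture. At a few reads, Mir411 had 21.4 RPM in 2B (nearest other library 4.08), Mir409 (AC121784.1) 13.9 in 3B, Mir341 13.8 in 1B, Mir540 and AF357355 4.08 in 1A, Mir136 8.16 in 1A, AF357428 and Mir431 7.13 in 2B, Mirlet7d 27.7 in 3A, and Mir410 and Mir470 62.0 in 2A, which is 1 read. These are far below Dnmt1 KO except for Mirlet7d.

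At higher levels, library 2A stood above the others for Mir143 (1115 RPM, nearest 592), Mir183 (32590, nearest 8081), Mir191 (CT010508.1, 41380, nearest 12250), Mir10a (1425) and Mir10b (4275). Library 2B did so for Mir26b and its host Ctdsp1 (both 527.8), Mir25 (10700), its host Mcm7 (13250), Mir93 (2240), Mir17 (606.3), Mir291a (5471) and Mir148b (392.3). The Mt_rRNA share of counts was 9.57% in 2B (nearest 2.91%), and the processed_transcript share was low in 2A at 6.87% (nearest 9.66%).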

How the results depend on the processing

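The called features numbered 47, with 45 higher and 2 lower. They were 31 with a pseudocount of 1 RPM, 30 with a stricter filter, 80 with voom weights (73 higher, 7 lower), 30 with correlated pairs of libraries (29 higher, 1 lower), 17 with A and B summed per culture (17 higher, 0 lower) and 28 with TMM over all features (27 higher, 1 lower), a setting chosen after seeing the data. Without the E14 2 culture 181 were called (96 higher, 85 lower). Features called lower were 1 with library reads only, medians of ratios or snoRNA and snRNA factors, 0 with a pseudocount of 1 RPM, no filter or a stricter filter, and 7 in a fit of the 8 libraries. Leaving out 1 library at a time gave 16 to 84 calls, 16 to 70 higher and 0 to 14 lower: 16 without Dnmt1 KO B, 19 without Dnmt1 KO A and 84 without WT 2A. The letter as a replicate block gave 39 calls (38 higher, 1 lower) and 3 of the fibroblast or feeder markers. Whether the letters pair the libraries is not settled.

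The 29 called miRNAs became 17 with the stricter filter, 45 with voom, 57 without E14 2, 11 with summed pairs and 11 to 43 with 1 library left out. The 15 outside Dlk1-Dio3 became 9 with library reads only, 6 with a pseudocount of 1 RPM, no filter or a stricter filter, 23 with 50 RPM, 31 with voom, 8 with correlated pairs, 7 with TMM over all features, 43 without E14 2, 1 with summed pairs and 2 to 28 with 1 library left out. The miRNA median of 1.40 became 1.76 with snoRNA and snRNA factors, 1.07 with 50 RPM and 0.69 with no filter. These scalings moved the median of all features from 0.13 to between -0.07 (library reads only) and 0.49 (snoRNA and snRNA factors).

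The 14 called Dlk1-Dio3 miRNAs became 28 with no filter and 9 to 15 with 1 library left out. The median log2 fold change of Dlk1-Dio3 miRNAs, 6.45, became 6.06 with library reads only, 6.79 with snoRNA and snRNA factors, 9.18 and 4.46 with pseudocounts of 1 and 50 RPM, 3.10 with no filter, 6.73 with a stricter filter, 7.03 with voom, 6.10 with 8 libraries, 6.81 with summed pairs and 6.33 to 7.19 with 1 library left out. The 4 called snoRNAs of the locus became 2 with a stricter filter and 2 to 4 with 1 library left out. The 3 called in the X-linked cluster became 5 with no filter, 1 with a stricter filter or summed pairs and 1 to 3 with 1 library left out. The 5 fibroblast or feeder markers became 2 with library reads only or correlated pairs, 3 with medians of ratios or a stricter filter, 0 with no filter or summed pairs, 1 with TMM over all features and 1 to 4 with 1 library left out. Differences in percentage points that changed sign, Dnmt1 KO minus WT, were those in the share of counts: Mt_rRNA, with 0.855 without E14 2 and -2.03 to 1.08 with 1 library left out (without Dnmt1 KO B and A), in the share of counts: misc_RNA, with -0.10 to 0.00469 with 1 library left out (without WT 2A and 1A), and in that of protein-coding genes, with 0.185 per library reads. Apart from changes made by fewer features or libraries entering a fit, the cause was not tested. Depth limits all features with a few reads, and WT 2A most of all.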
